A study of Homo sapiens with 6 samples.

Results

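The 6 genes described here encode the core subunits of Polycomb repressive complex 2 (PRC2): EZH1, EZH2, EED, SUZ12, RBBP4 and RBBP7. They were taken by symbol from the 53712 genes of the count table, and all 6 were among the 16873 genes that passed the filter on low counts. The cells were H9, an established human embryonic stem cell line, naive per the labels and kept in PXGL medium. Both groups received 25 nM oligonucleotide with Lipofectamine Stem. SO-L1 (3 libraries), used as the control, received sense oligonucleotides of LINE-1, a retrotransposon family, and ASO-L1 (3 libraries) received the antisense ones. Both groups also received trans-ISRIB, emricasan and the ROCK inhibitor Y-27632, removed after 24 hours, and RNA was taken from unsorted cells 48 hours after transfection. The study's title names LINE-1 and PRC2 together, and the comparison asks how the complex's own genes are expressed after the antisense oligonucleotide.

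PRC2 methylates lysine 27 of histone H3, a mark of silenced developmental genes. EZH2 or its paralog EZH1 carries the catalytic SET domain, EED binds the methylated histone tail, SUZ12 is the scaffold that holds the complex together, and RBBP4 or its paralog RBBP7 binds histones. In pluripotent cells PRC2 covers the promoters of many developmental regulators, and EZH2 is abundant in dividing cells while EZH1 is also kept in resting ones.

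Library totals ran from 23330875 to 31164287 counts. The labels do not say whether the replicates came from different cultures, so every p-value here is set against a spread between libraries that may be purely technical. In the edgeR quasi-likelihood fit over all tested genes, 33.7% were called at an adjusted p under 0.05 (18.0% higher and 15.7% lower after ASO-L1), and 50.9% had no overlap between the libraries of the groups. The first principal component held 68.8% of the variance and placed ASO-L1 replicate 2 farthest out, at 58.9 against 22.3 and 18.9 for the other ASO-L1 libraries. SO-L1 replicate 2 was shifted in the same direction, at -21.3 against -38.3 and -40.5 for the other SO-L1 libraries. Markers did not all match the labelled naive state. KLF17 lay at 0.744 ± 0.196 CPM (read counts scaled to a common library size, SD, n = 3) in SO-L1 and 0.396 ± 0.146 in ASO-L1, and ARGFX at 0.130 ± 0.0866 and 0.0570 ± 0.0663, whereas DPPA3, DPPA5, SUSD2 and DNMT3L were each above 9 CPM in both group means.

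The core subunit genes differed by small amounts and not in 1 direction. RBBP4 and EZH2 fell, by 15.4% and 18.8% in mean CPM, SUZ12 rose by 14.1%, and EZH1, EED and RBBP7 did not pass the test. Thus 3 of the 6 members were called (1 higher, 2 lower), beside 33.7% of all tested genes, and 5 of the 6 had no overlap between groups, beside 50.9%. Without any 1 of the 6 libraries 0 members were called higher, and 0 were called lower without SO-L1 replicate 1 or 3 and 1 without SO-L1 replicate 2. The median log2 fold change of the members was -0.13, beside -0.01 over all tested genes, for which the quartiles were -0.26 and 0.27 and the median absolute value 0.27. In bulk RNA, fewer cells expressing a gene and less of its RNA per cell cannot be told apart.

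**Figure D1:**
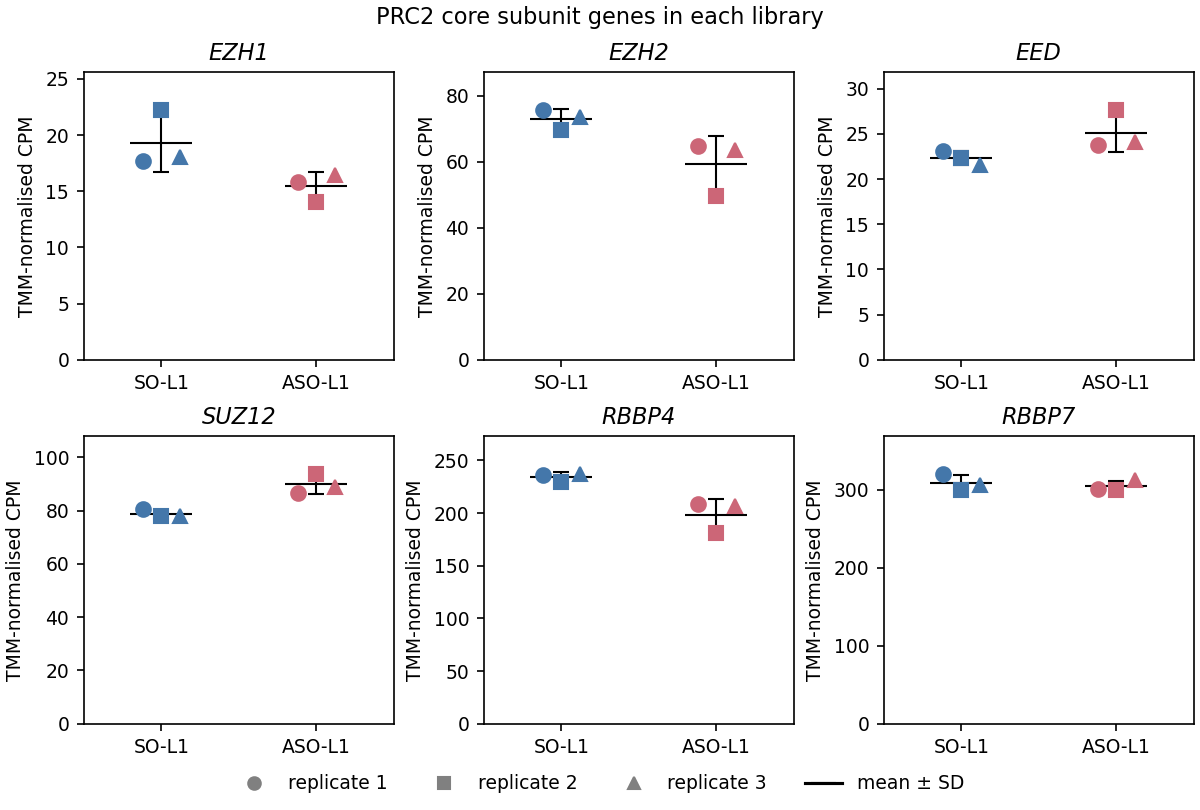
TMM-normalised CPM of the 6 core subunit genes in each library (y axis, from 0) by group (x axis), with replicate numbers as symbols and bars for mean ± SD of 3 libraries. The 3 ASO-L1 libraries lie below all SO-L1 libraries for EZH1, EZH2 and RBBP4, above them for EED and SUZ12, and among them for RBBP7.

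The promoters of the 3 called members are shown because EZH2 and RBBP4 are textbook targets of E2F factors, the cell cycle regulators whose own genes were counted below, and SUZ12 moved the other way. The sequences are from RefSeq (GRCh38.p14), 5′ to 3′ on the gene's strand, with E2F-type and CCAAT matches on either strand in capitals. They are EZH2 at chr7:148884280-148884391 (minus strand, ending 12 bases into the transcript), RBBP4 at chr1:32651088-32651207 (plus strand, 120 bases upstream of the start) and SUZ12 at chr17:31936807-31937006 (plus strand, 200 bases upstream).
EZH2: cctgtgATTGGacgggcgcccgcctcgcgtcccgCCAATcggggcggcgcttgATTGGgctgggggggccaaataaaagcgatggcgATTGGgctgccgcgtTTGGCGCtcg
RBBP4: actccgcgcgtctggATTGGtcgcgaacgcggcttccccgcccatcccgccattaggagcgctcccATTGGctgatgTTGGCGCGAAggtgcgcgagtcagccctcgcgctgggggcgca
SUZ12: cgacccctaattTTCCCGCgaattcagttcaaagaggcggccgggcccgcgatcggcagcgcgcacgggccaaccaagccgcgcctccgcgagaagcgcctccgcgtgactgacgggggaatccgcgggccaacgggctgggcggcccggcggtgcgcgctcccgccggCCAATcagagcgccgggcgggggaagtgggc
The capitals in EZH2 mark 4 CCAAT boxes before the start and 1 E2F-type match from base 3 of the transcript. In RBBP4 they mark 2 CCAAT boxes and 2 E2F-type matches that overlap in TTGGCGCGAA, and in SUZ12 an E2F-type match from position -188 and a CCAAT box from position -31, counted back from the first base of the transcript.

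All 6 members matched the RefSeq table of windows from 250 bases before to 50 bases after a gene's start, with 9 windows between them. The 4 motifs searched, on both strands, were E2F-type sites (spelled TTGGCGC, or with C in the middle as TTCCCGC, or with a central CG as TTCGCGC, or with a central GCC as TTGCCGC), the CCAAT box (CCAAT), the GC box (GGGCGG) and the E-box (CACGTG). E2F-type sites were in 6 of the 9 windows, of 5 members, and in 12.97% of all 35116 windows. CCAAT was in 7 of the 9 windows, also of 5 members, beside 34.6% of all windows, GGGCGG in 8 of the 9, beside 45.0%, and CACGTG in 1, of RBBP4, beside 7.26%. The RBBP4 windows overlap, so the same E2F-type matches, a CCAAT and a GGGCGG of that gene count in more than 1 of the 9. EED was the member without an E2F-type match and EZH1 the one without CCAAT. SUZ12, which was higher, and EZH2 and RBBP4, which were lower, all carry E2F-type and CCAAT matches. The matches are descriptions of letters and not of binding, and their part in the changes was not tested.

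EZH2, the catalytic subunit of most PRC2 in dividing cells, had 75.8, 69.6 and 73.5 CPM in SO-L1 replicates 1, 2 and 3 and 64.6, 49.5 and 63.6 CPM in ASO-L1 replicates 1, 2 and 3. Every ASO-L1 library lay below every SO-L1 library, with ASO-L1 replicate 2 the lowest. Group means were 73.0 ± 3.10 and 59.2 ± 8.47 CPM (SD, n = 3). The log2 fold change was -0.30 ± 0.10 (SE), with a 95% interval from -0.52 to -0.08 and an adjusted p of 0.0407 by edgeR's quasi-likelihood test. That interval spans folds of 0.697 to 0.947. Without SO-L1 replicate 1, 2 or 3 the fold change was -0.27, -0.34 or -0.30 and the call was lost (adjusted p = 0.142, 0.0540 and 0.116), and without ASO-L1 replicate 2 the value was -0.19 (adjusted p = 0.0408), a change of more than 1.5 times.

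EZH1, the paralog with weaker methyltransferase activity, was counted in 321 to 552 reads per library. Its CPM were 17.7, 22.3 and 18.0 in SO-L1 replicates 1 to 3 and 15.8, 14.1 and 16.5 in ASO-L1. The groups did not overlap, but SO-L1 replicate 2 stood above the other controls. The log2 fold change was -0.32 ± 0.12, numerically the largest of the 6, with a 95% interval from -0.57 to -0.06 and an adjusted p of 0.0568, so EZH1 was not called. With the replicate number as a block it passed, at -0.31 and an adjusted p of 0.0231, as it did with no filter on low counts (-0.33, adjusted p = 0.0293). With the block 4 of the 6 members were called, beside 45.7% of all tested genes. Without SO-L1 replicate 2 the value was -0.21 (adjusted p = 0.163).

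No difference in the proportion of the 2 catalytic genes was detected. Reads of EZH1 per read of EZH2 were 0.233, 0.320 and 0.245 in SO-L1 replicates 1, 2 and 3 and 0.245, 0.285 and 0.259 in ASO-L1. The groups overlapped, and the log2 ratio differed by -0.005 between group means, with an exact two-sided permutation p of 1.0, also 1.0 adjusted over the 2 paralog pairs. Without SO-L1 replicate 2 the difference was 0.13, so its sign is not set by these data. The transcripts of EZH1 and EZH2 shared none of their 50-base stretches in GENCODE v29 (0 of 4852 in EZH2), so reads of that length without mismatches belong to 1 of the genes.

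**Figure D2:**
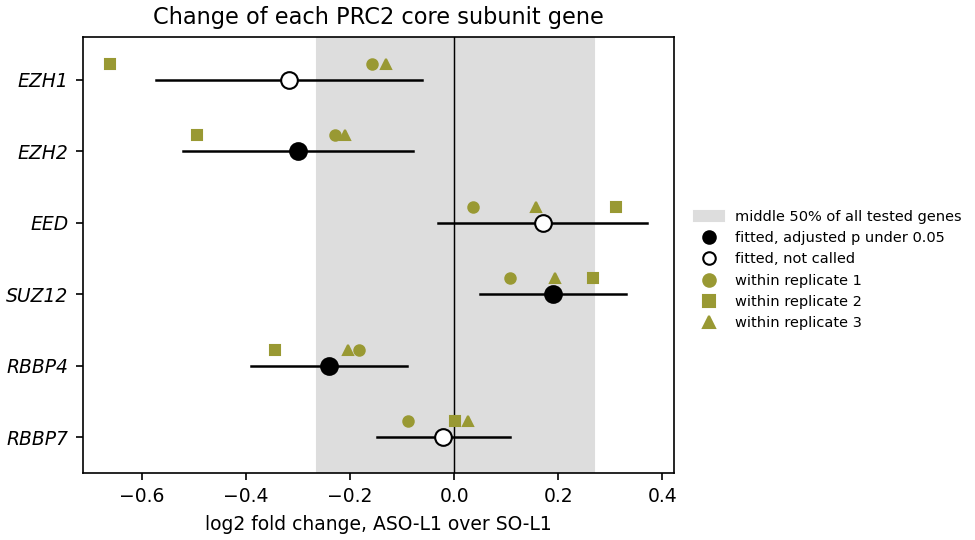
Fitted log2 fold change of each core subunit gene (x axis, ASO-L1 over SO-L1) with its 95% interval, small symbols for the differences within each replicate number, and grey for the middle 50% of all tested genes (-0.26 to 0.27). EZH1, EZH2 and RBBP4 lie to the left, SUZ12 and EED to the right, and replicate 2 gives the largest shift in each of these 5 genes.

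SUZ12, the scaffold, was the member called higher. It had 80.5, 78.0 and 77.8 CPM in SO-L1 replicates 1, 2 and 3 and 86.7, 93.9 and 89.0 CPM in ASO-L1. The groups did not overlap, and the controls lay within a narrow band. Means were 78.8 ± 1.47 and 89.9 ± 3.67 CPM, the log2 fold change was 0.19 ± 0.06 with a 95% interval from 0.05 to 0.33, and the adjusted p was 0.0418 by edgeR. The call was lost without any 1 of the 6 libraries. The value then ran from 0.16 (without ASO-L1 replicate 2, adjusted p = 0.0564) to 0.23 (without ASO-L1 replicate 1, 0.0612), and the adjusted p reached 0.145 without SO-L1 replicate 3. With no filter on low counts it was also not called (0.18, adjusted p = 0.137).

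A pseudogene bears on the SUZ12 value. The gene SUZ12P of the count table held 20.9% to 27.7% as many reads as SUZ12, with 22.3, 19.2 and 20.3 CPM in SO-L1 replicates 1, 2 and 3 and 21.6, 19.6 and 20.6 CPM in ASO-L1. The groups overlapped, and its log2 fold change was 0.00 ± 0.06 (adjusted p = 0.996). In GENCODE v29 the SUZ12 transcripts shared 430 of their 6542 stretches of 50 bases with a gene named SUZ12P1, or 6.57%, and how the authors assigned reads of such stretches is not given in the sources used here. With the reads of SUZ12P added to SUZ12, an alternative chosen after seeing the data, the log2 fold change was 0.15 and the call was lost (adjusted p = 0.0758). The other pseudogenes held few reads, with at most 8 in total for any of 6 RBBP4 pseudogenes and 0 for EZH2P1.

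EED, which reads the mark that PRC2 writes, had 23.1, 22.3 and 21.6 CPM in SO-L1 replicates 1 to 3 and 23.7, 27.7 and 24.1 CPM in ASO-L1. All ASO-L1 libraries were above all SO-L1 libraries, with the nearest pair at 23.1 and 23.7. The log2 fold change was 0.17 ± 0.09, close to that of SUZ12, but its 95% interval ran from -0.03 to 0.37 and the adjusted p was 0.170. Folds between 0.979 and 1.29 lie in that interval, so a rise of the size seen in SUZ12 could not be told from no change in EED. EED received 548 to 741 reads per library, and the part of depth in the width of the interval was not tested. Without ASO-L1 replicate 2 the value was 0.10 (adjusted p = 0.402).

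RBBP4, a histone chaperone that also serves in other chromatin complexes, had the lowest adjusted p of the 6. Its CPM were 236.5, 229.6 and 237.3 in SO-L1 replicates 1, 2 and 3 and 208.3, 180.8 and 206.2 in ASO-L1. The groups did not overlap, and ASO-L1 replicate 2 was again the lowest. Means were 234.5 ± 4.23 and 198.4 ± 15.3 CPM and the log2 fold change was -0.24 ± 0.07 (95% interval -0.39 to -0.09, adjusted p = 0.0216 by edgeR). Without SO-L1 replicate 1 or 3 the value was -0.24 or -0.23 and the call was lost (adjusted p = 0.0719 and 0.0823).

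RBBP7, its paralog, had the smallest difference. It had 320.7, 299.9 and 306.5 CPM in SO-L1 and 301.7, 300.1 and 312.1 CPM in ASO-L1. The groups overlapped, and the log2 fold change was -0.02 ± 0.06 (adjusted p = 0.806). Its 95% interval, from -0.15 to 0.11, leaves room for folds between 0.903 and 1.08. TXLNG overlaps RBBP7 on the opposite strand in GENCODE v29, and SYNC overlaps RBBP4 likewise. Whether reads were counted by strand is not given in the sources used here, so reads of these genes and their partners cannot be told apart where they overlap. Over all 6 libraries TXLNG held 32204 reads, beside 50554 for RBBP7, and SYNC held 2650, beside 35828 for RBBP4.

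The proportion of the histone-binding paralogs was lower for RBBP4 in every replicate number after ASO-L1. Reads of RBBP4 per read of RBBP7 were 0.737, 0.766 and 0.774 in SO-L1 replicates 1, 2 and 3 and 0.691, 0.602 and 0.661 in ASO-L1, with no overlap. The ratio was 0.857 times the control ratio (log2 difference -0.22, and -0.09, -0.35 and -0.23 within replicates 1, 2 and 3). The exact two-sided permutation p was 0.1, the smallest that 3 against 3 libraries can give, and 0.2 adjusted over the 2 paralog pairs, so this design could not pass the threshold for a ratio. The 2 genes shared 0 of their 50-base stretches.

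The ratio of scaffold to catalytic subunit was added after the members' values were seen and has no test. Reads of SUZ12 per read of EZH2 were 1.06, 1.12 and 1.06 in SO-L1 replicates 1, 2 and 3 and 1.342, 1.898 and 1.399 in ASO-L1, or 1.41 times the control ratio. All ASO-L1 libraries were higher, replicate 2 most. Reads of EED per read of EZH2 went from 0.305, 0.320 and 0.293 to 0.367, 0.559 and 0.378.

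**Figure D3:**
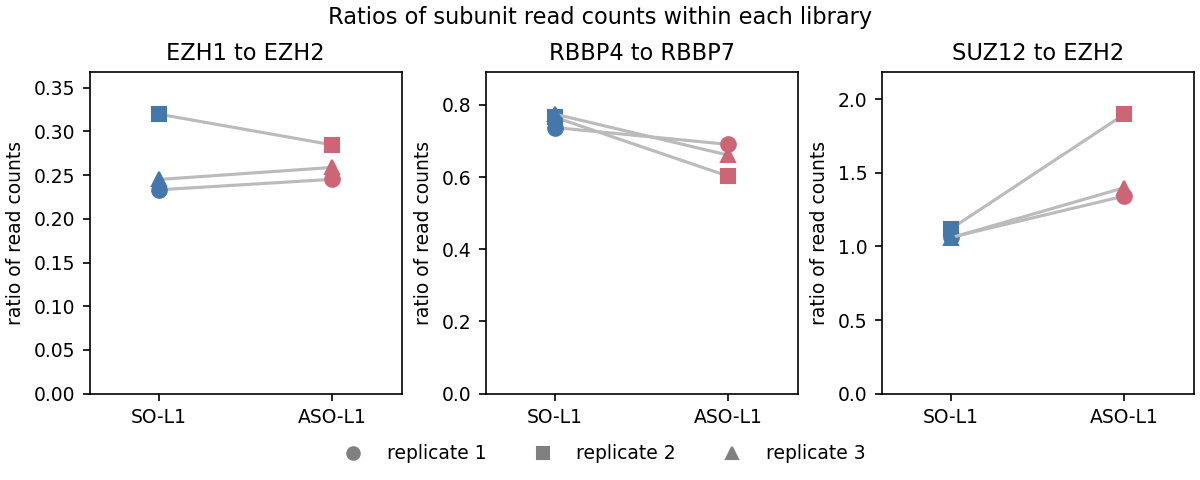
Ratio of read counts of 2 subunit genes in each library (y axis, from 0) by group (x axis), with lines joining libraries of the same replicate number. EZH1 to EZH2 overlaps between groups, RBBP4 to RBBP7 is lower in all 3 ASO-L1 libraries, and SUZ12 to EZH2 is higher in all 3, with replicate 2 at 1.90.

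Per kilobase of exon, the 6 genes spanned more than a factor of 10 in level. Using the union of exons in GENCODE v29 (GRCh38, whereas the counts are on hg19), CPM per kb in SO-L1 were 41.8 ± 1.44 for RBBP7, 24.8 ± 0.446 for RBBP4, 16.1 ± 0.686 for EZH2, 12.03 ± 0.224 for SUZ12, 3.18 ± 0.112 for EED and 2.76 ± 0.366 for EZH1 (SD, n = 3). EED and EZH1 did not differ beyond their spread, since their libraries overlapped. In ASO-L1 the levels were 41.2 ± 0.876 for RBBP7, 21.0 ± 1.62 for RBBP4, 13.7 ± 0.561 for SUZ12, 13.1 ± 1.87 for EZH2, 3.59 ± 0.312 for EED and 2.21 ± 0.177 for EZH1. SUZ12 and EZH2 thus lay within their spread of each other after ASO-L1, where EZH2 had been above SUZ12 in every control library. The order of neighbours this close depends on the length used. With the longest protein-coding transcript, EZH2 stayed above SUZ12 in the ASO-L1 means, at 22.4 ± 3.21 against 20.0 ± 0.817 CPM per kb, and EED stood well above EZH1, at 11.3 against 3.34.

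The members' sum was lower after ASO-L1 in each replicate number. It was 754.2, 721.7 and 734.8 CPM in SO-L1 replicates 1, 2 and 3 and 701.0, 666.1 and 711.3 CPM in ASO-L1, with no overlap. RBBP4 and RBBP7 make up most of the level of the sum. Of its difference RBBP7 holds little, with means of 309.0 and 304.7 CPM, beside 234.5 and 198.4 for RBBP4 and 73.0 and 59.2 for EZH2. Within replicates 1, 2 and 3 the log2 difference was -0.23, -0.49 and -0.21 for EZH2, -0.18, -0.34 and -0.20 for RBBP4, -0.16, -0.66 and -0.13 for EZH1, 0.11, 0.27 and 0.19 for SUZ12 and 0.04, 0.31 and 0.16 for EED. Each of these 5 genes differed in the same direction in every replicate number and most in replicate 2. On the first principal component the replicate 2 libraries of both groups stood apart from the others of their group.

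The authors' deposited table of log2 fold changes, with a model that is not stated, lists the same directions. It gives -0.32 for EZH1, -0.32 for EZH2, 0.15 for EED, 0.18 for SUZ12, -0.25 for RBBP4 and -0.03 for RBBP7. Its adjusted p is under 0.05 for RBBP4 alone among the members (0.0452), and is 0.0643 for EZH2 and 0.127 for SUZ12, in the authors' deposited table. There, 21.4% of 20964 genes have an adjusted p under 0.05. In the authors' deposited batch-corrected log2 values the ASO-L1 libraries of EZH2 had an SD of 0.0688, beside 0.216 in log2 CPM here. The SD was instead larger than in log2 CPM for EZH1 and RBBP7 in ASO-L1 and for EED and SUZ12 in SO-L1. It was smaller for the remaining members and groups. The groups did not overlap in those values for EZH1, EZH2, SUZ12 and RBBP4 but overlapped for EED, whose replicate 1 was 4.58 in SO-L1 and 4.56 in ASO-L1.

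Some genes had nearly the same profile as a member over the 6 libraries. The measure was the root mean square difference of log2 CPM centred on each gene's mean, over 8357 other tested genes with a mean log2 CPM of at least 4. EZH2 was closest to ENOSF1 (0.0226), IPO11 (0.0240) and BCCIP (0.0261), and RBBP4 to CDC7 (0.0118), PIK3C3 (0.0124) and TRIT1 (0.0168). SUZ12 was closest to TIAL1 (0.0104), RRAS2 (0.0122) and TDG (0.0140), EED to VCP (0.0221), GORASP1 (0.0228) and POLR1D (0.0252). EZH1 was closest to B3GALT6 (0.0381), HMGXB3 (0.0456) and TEAD1 (0.0501), and RBBP7 to ST13 (0.0128), DNAJC7 (0.0136) and TSR3 (0.0146). For scale, the median of this difference over all compared genes was 0.140 for RBBP7 and 0.225 for EZH1. Among the members themselves, EED and SUZ12 differed by 0.0435 and EZH2 and RBBP4 by 0.0716, while EZH2 and EED, the most unlike, differed by 0.311.

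The accessory subunits, which direct PRC2 to its sites and set its activity, were likewise split. Of 8 tested of 9, 1 rose and 1 fell (25.0%, beside 33.7% of all tested genes), and the median log2 fold change was -0.11. AEBP2, a partner of the form of PRC2 that also holds JARID2, fell from 68.0 ± 0.622 to 54.7 ± 4.41 CPM (log2 fold change -0.32 ± 0.08, adjusted p = 0.0111 by edgeR). PHF19, a Polycomb-like protein, rose from 44.1 ± 1.02 to 53.0 ± 1.76 CPM (0.27 ± 0.07, adjusted p = 0.0154). JARID2 was at 542.6 and 507.5 CPM (-0.10 ± 0.08, adjusted p = 0.374), and EPOP, listed under the older name C17orf96, at 4.61 and 6.94 CPM (0.59 ± 0.23, adjusted p = 0.0673). With the replicate block, which called 45.7% of all tested genes, 3 rose and 3 fell. Among them were EPOP (adjusted p = 0.00157), PHF1 (0.00290) and MTF2 (0.0157). PHF19 was not called without SO-L1 replicate 3 (adjusted p = 0.0749), which left 0 genes higher. The count of genes higher was 3 when SO-L1 replicate 2 was left out, 2 when ASO-L1 replicate 3 was, and 3 with DESeq2 or with no filter, and 2 genes were lower when SO-L1 replicate 1 was left out or with no filter. EPOP was called without SO-L1 replicate 2 (0.80, adjusted p = 0.0279).

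Among enzymes that act on lysine 27 of histone H3 or oppose PRC2, 1 of 14 tested genes rose and 0 fell. That is 7.14%, beside 33.7% of all tested genes, and the median was 0.04. The demethylases that remove the PRC2 mark did not pass the test, with KDM6A at 97.4 and 89.7 CPM (-0.12 ± 0.07, adjusted p = 0.192 by edgeR) and KDM6B at 47.1 and 49.7 CPM (0.08 ± 0.19, adjusted p = 0.768). CREBBP, an acetyltransferase of the same lysine, rose from 139.5 ± 16.1 to 225.0 ± 26.7 CPM (0.69 ± 0.10, adjusted p = 0.00217). With the replicate block 3 rose and 2 fell, beside 45.7% of all tested genes called. The count of genes higher was 3 without ASO-L1 replicate 2 and 2 without SO-L1 replicate 3, and 2 were lower without SO-L1 replicate 1. With RLE size factors or DESeq2 1 gene of this list was lower, and with no filter 2 were. Without replicate 2 of both groups 5 were higher.

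PRC1, the complex that binds the PRC2 mark and ubiquitinates histone H2A, had 8 of 22 tested subunit genes higher and 2 lower. That is 45.5% called, beside 33.7% of all tested genes, with a median of 0.12. PCGF1, which defines a variant form of PRC1, rose from 8.98 ± 2.11 to 30.5 ± 9.66 CPM (1.77 ± 0.25, adjusted p = 0.00282 by edgeR). PHC2 (0.88, adjusted p = 0.00517) and PCGF2 (0.37, adjusted p = 0.00984) also rose. CBX7, a chromodomain reader of the mark, fell from 4.59 ± 0.850 to 2.12 ± 0.227 CPM (-1.11 ± 0.19, adjusted p = 0.00297), and PHC3 fell (-0.38, adjusted p = 0.0341). The count of genes higher was 3 when SO-L1 replicate 1 or 3 was left out, and 1 gene was lower when SO-L1 replicate 3 or ASO-L1 replicate 1 or 2 was left out. PCGF2 was not called without SO-L1 replicate 1 (adjusted p = 0.0543), and PHC3 when any of 4 single libraries was left out (SO-L1 replicates 2 and 3, ASO-L1 replicates 1 and 2).

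RBBP4 and RBBP7 also serve in the NuRD and SIN3 deacetylase complexes, and RBBP4 in the chromatin assembly factor CAF-1 and the MuvB core. The list counted here also holds the remodellers BPTF, SMARCA1 and SMARCA5 and the acetyltransferase HAT1. Of its 28 genes 7 rose and 4 fell (39.3%, beside 33.7% of all tested genes), with a median of -0.03. GATAD2B (0.56, adjusted p = 0.00236), MTA2 (0.42, 0.00291) and LIN54 (0.69, 0.00333) rose, while MTA1 (-0.48, 0.00629), LIN52 (-0.50, 0.00634) and SUDS3 (-0.44, 0.00874) fell, all by edgeR's quasi-likelihood test. The NuRD subunits MTA2 and MTA1, which are paralogs, thus moved in opposite directions, from 108.0 ± 3.24 to 144.8 ± 11.5 CPM and from 70.8 ± 4.09 to 50.7 ± 7.03 CPM. Without SO-L1 replicate 3 the count of genes higher was 4.

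E2F factors and S phase genes were counted because EZH2, EED and RBBP4 are known to follow the cell cycle. Of 28 tested, 10 rose and 5 fell (53.6%, beside 33.7% of all tested genes), with a median of 0.02. Their summed level was 3491 to 3817 CPM in SO-L1 and 3900 to 4023 CPM in ASO-L1, without overlap. E2F8 rose from 10.8 ± 1.34 to 22.5 ± 2.35 CPM (1.06 ± 0.12, adjusted p = 0.00117 by edgeR), E2F1 from 47.6 ± 2.47 to 76.1 ± 6.47 CPM (0.68 ± 0.08, 0.00135) and CCNE2 by 1.77 ± 0.30 on the log2 scale (0.00409). RRM1 (-0.31, 0.0167), RBL2 (-0.42, 0.0178) and RB1 (-0.47, 0.0235) fell. The list mixes E2F factors, RB1, RBL1 and RBL2 with S phase genes, so its count and median are no measure of S phase activity. EZH2 and RBBP4 fell in the same libraries in which E2F1 rose, and any part of E2F factors in these changes was not tested. The count of genes lower was 8 with the replicate block, which called 45.7% of all tested genes. It was 2 without SO-L1 replicate 1, 3 without ASO-L1 replicate 1 and 0 without SO-L1 replicate 3.

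Developmental regulators known as Polycomb targets were mostly at low levels, and 28 of 42 passed the filter. Of the tested genes 15 were higher and 2 lower (60.7% called, beside 33.7% of all tested genes). A gene could, however, pass the filter through the group in which it was high, so the count is no support for a direction. With no filter, 13 were called higher and 2 lower, beside 3123 higher and 2987 lower over all genes with a read. Examples by smallest p were OLIG2, from 1.07 ± 0.0820 to 3.14 ± 0.586 CPM (1.55 ± 0.21), and PAX6, from 1.13 ± 0.157 to 3.78 ± 1.05 CPM (1.74 ± 0.24). HOXB1 fell from 13.9 ± 3.33 to 5.39 ± 0.850 CPM (-1.35 ± 0.18), and OLIG3 fell by 0.61 on the log2 scale. The count of genes higher was 8 without SO-L1 replicate 3, and 1 was lower without SO-L1 replicate 1 or 3, where OLIG3 was not called (adjusted p = 0.0562 and 0.0860).

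**Figure D4:**
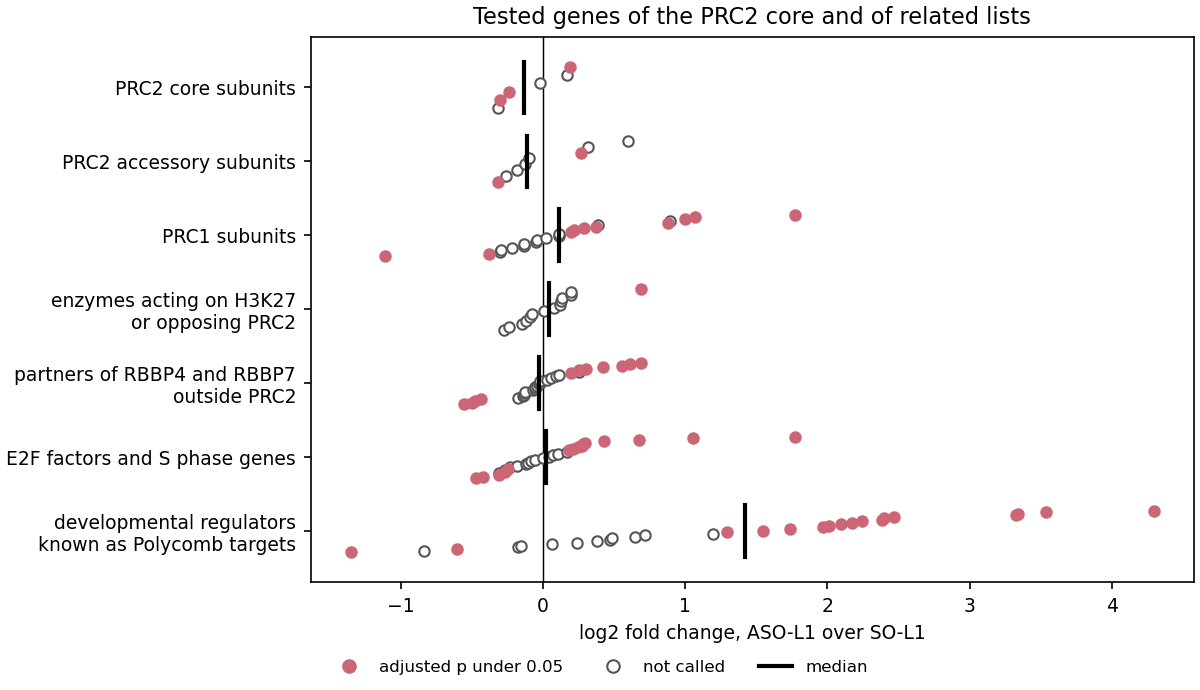
Log2 fold change (x axis, ASO-L1 over SO-L1) of each tested gene in the PRC2 core and in related lists, filled where the adjusted p is under 0.05, with a bar at each list's median. The core genes lie between -0.32 and 0.19, a narrower range than that of the PRC1 subunits (-1.11 to 1.77), and the developmental regulators shown are those that passed the filter (28 of 42).

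Markers of cell state moved in the same libraries, in which 33.7% of all tested genes were called, or 45.7% with the replicate block. Of 5 genes shared by pluripotent states 0 were called by edgeR, with POU5F1 at 1265 and 1136 CPM (adjusted p = 0.114), and their summed level was 3435 to 3755 CPM in SO-L1 and 2993 to 3444 CPM in ASO-L1. With the replicate block 3 of the 5 were called lower, namely POU5F1 (adjusted p = 0.0391), LIN28A (0.0301) and NANOG (0.00396). Of 9 tested naive markers of 10, 2 rose (KLF4, TFCP2L1) and 3 fell (DPPA3, SUSD2, DNMT3L), with sums of 348.5 to 359.9 and 333.5 to 369.5 CPM. With the replicate block 3 were higher and 4 lower, adding KLF5 (23.9 and 33.1 CPM, adjusted p = 0.00107) and DPPA5 (34.18 and 16.97 CPM, 3.21e-07). Primed markers rose in 4 of 7 tested genes, VIM from 130.1 to 308.0 CPM, with sums of 405.4 to 416.3 and 571.4 to 642.5 CPM. Trophoblast markers summed to 9.83 to 11.9 and 11.8 to 18.7 CPM (1 of 3 tested higher), and fibroblast markers to 472.3 to 533.2 and 526.8 to 578.1 CPM (2 of 6 tested higher). With the replicate block 5 primed markers were higher and 1 lower, and 2 trophoblast and 3 fibroblast markers were higher. Of the fibroblast genes, COL1A1 was at 281.0 and 329.5 CPM while DCN was at 0.109 and 0.0138 CPM. The part of these shifts in the levels of the PRC2 genes was not tested.

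**Figure D5:**
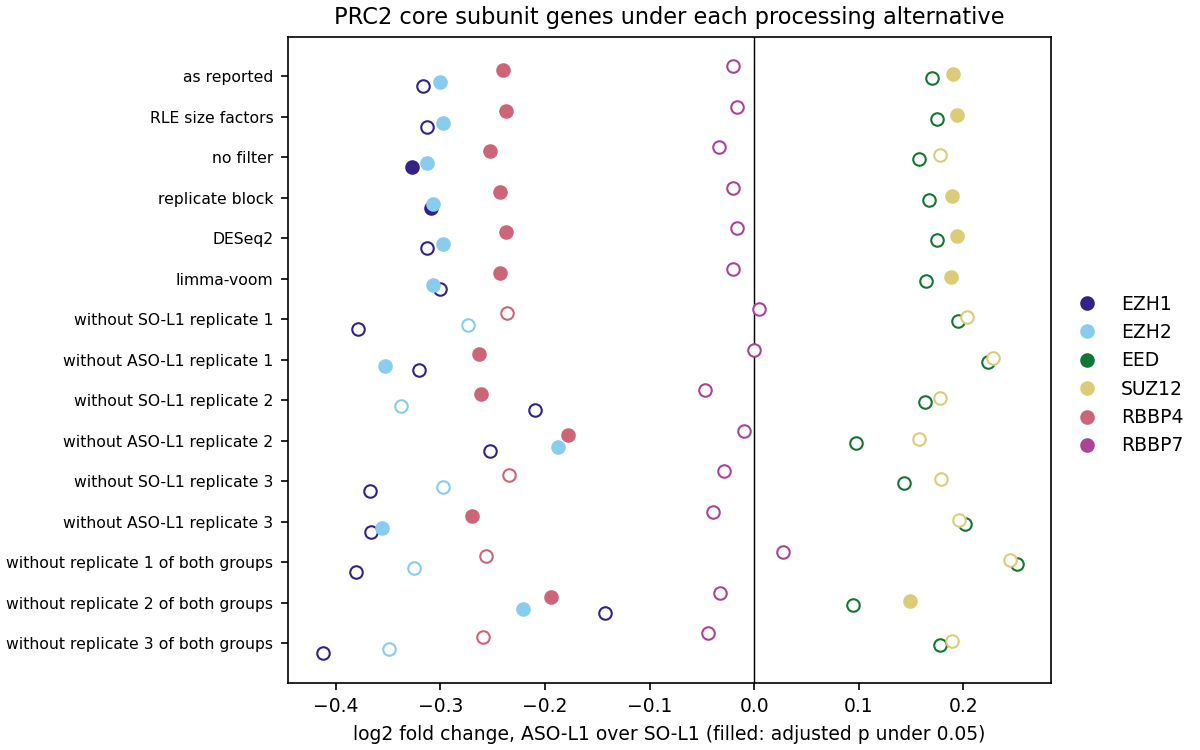
Log2 fold change (x axis, ASO-L1 over SO-L1) of each core subunit gene under the reported settings and each alternative (y axis), filled where the adjusted p is under 0.05. EZH1, EZH2 and RBBP4 stay below 0 and EED and SUZ12 above 0 in every setting drawn, RBBP7 lies near 0 on both sides, and the filled symbols of EZH2, SUZ12 and RBBP4 open up when single libraries are left out.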

How the data were processed

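Poly(A) RNA-seq of 3 SO-L1 and 3 ASO-L1 libraries was used, made with a directional kit from 200 ng RNA. The authors deposited raw read counts per gene symbol. Per the submitters' processing notes, the build was hg19 and the tools were featureCounts, Subread 1.5.0, TopHat2 2.0.13 and Trim Galore 0.4.0. Not given in the sources used here: the annotation, the strand setting, the handling of near-identical copies and the extent of duplicate removal, which can lower abundant genes. Per the file headers, the authors' deposited comparison table holds log2 fold changes, t and log-odds scores, p-values and adjusted p-values, and another deposited table holds batch-corrected log2 values.

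Counts were filtered with filterByExpr of edgeR 4.0.16 (R 4.3.3; minimum count 10, minimum total 15), scaled by TMM and tested with the robust quasi-likelihood test, two-sided and Benjamini-Hochberg adjusted over all 16873 tested genes, with calls at an adjusted p under 0.05. The fit had no replicate term. Standard errors come from the fold change and its F statistic. CPM carry the TMM factors, and log2 CPM used a prior count of 2. The common biological coefficient of variation was 10.2%. The test was checked on simulated data. Alternatives were RLE size factors, no filter, the replicate block, DESeq2 1.42.0, limma-voom (limma 3.58.1) and leaving out libraries.

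Deviations of same-numbered libraries from their group means correlated at 0.102, 0.377 and 0.211, each over 0.1. SO-L1 replicate 1, however, correlated more with ASO-L1 replicate 3 (0.156). The numbers were taken as pairs only in the replicate block, the paired form of the ratios and the differences within replicates. The reported calls and p-values come from the fit without pairs, which called fewer genes than the block (33.7% and 45.7% of all tested genes). No pair of libraries in a group agreed within sampling noise (chi-square per degree of freedom 2.05 to 24.4).

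The members and all gene lists were chosen with earlier results of these data known. Named genes are the members, their pseudogenes, up to 3 called genes per list and direction by smallest p, EPOP, JARID2, KDM6A, KDM6B, the 3 genes most like each member and each member's annotated neighbours. Other accessory subunits and the marker genes given with values were named after their values were seen, and 1 gene that the rule names is not reported here.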

Additional observations from a re-analysis of the deposited data

How the results depend on the processing

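RLE size factors, DESeq2 and limma-voom kept the calls of EZH2, SUZ12 and RBBP4 and the directions of all 6 members. The replicate block changed no member's call but that of EZH1 (-0.31), which was also called with no filter (-0.33). SUZ12 was not called with no filter (0.18) or with SUZ12P reads added (0.15). Without single libraries the log2 fold change ran from -0.36 to -0.19 for EZH2, from 0.16 to 0.23 for SUZ12, from -0.27 to -0.18 for RBBP4 and from -0.047 to 0.0051 for RBBP7, the last changing sign. Without replicate 1 of both groups EZH2 (-0.32), SUZ12 (0.24) and RBBP4 (-0.26) were not called and RBBP7 was at 0.028; without replicate 3 of both groups EZH2 (-0.35), SUZ12 (0.19) and RBBP4 (-0.26) were not called. Members called higher then numbered 0, as they did with no filter and without any single library, and members called lower 0, with 0 to 2 without single libraries. Over all genes, 757 were higher and 426 lower without replicate 1 of both groups, 1611 and 1209 without replicate 3, and 1601 to 2903 and 1374 to 2456 without single libraries, with the fewest when SO-L1 replicate 3 (1601 and 1374) or 1 (1718 and 1448) was left out. Without replicate 2 of both groups, which leaves as many libraries, edgeR still called EZH2 (-0.22, adjusted p = 0.00188), SUZ12 (0.15, 0.0271) and RBBP4 (-0.19, 0.00106). Over all genes 3726 were then higher and 3471 lower, beside 3031 and 2653 with all libraries. Fewer libraries were tested in each of these settings, and no cause of the differences in calls was tested. The EZH1 to EZH2 log2 ratio ran from -0.093 to 0.13 without single libraries and was 0.076 without replicate 2 of both groups. In the paired form (replicate block), the RBBP4 to RBBP7 log2 ratio had an exact sign-flip p of 0.25, the smallest that 3 pairs allow. KDM6B was at -0.032 when SO-L1 replicate 1 was left out and at -0.13 when ASO-L1 replicate 2 was. SUZ12P, at 0.00, was at -0.012 with no filter, -0.00011 with limma-voom, -0.051 to 0.061 without single libraries, and -0.015 and -0.010 without replicates 2 and 3 of both groups. Of 28 other named genes that were called, 17 lost the call in at least 1 setting. EZH1 and EED had the least depth of the members, with 321 to 741 reads per library.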

Other observations

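Genes next to the members on the chromosome, taken from the RefSeq order (GRCh38.p14), did not all follow them. Of the 12 neighbours, 3 were called by edgeR, beside 33.7% of all tested genes. PDIA4, an endoplasmic reticulum chaperone gene next to EZH2, fell from 382.0 ± 14.5 to 290.4 ± 32.6 CPM (SD, n = 3; log2 fold change -0.40 ± 0.08, adjusted p = 0.00598), while CUL1 on the other side was at 130.8 and 143.0 CPM (0.13 ± 0.06, adjusted p = 0.102). SYNC, which overlaps RBBP4 on the opposite strand, fell from 17.5 ± 0.791 to 14.5 ± 0.767 CPM (-0.27 ± 0.09, adjusted p = 0.0471). That call was lost with RLE size factors (adjusted p = 0.05001), DESeq2 (0.0682) and no filter (0.0818). It was also lost when single libraries were left out, namely SO-L1 replicate 1 (0.108), 2 (0.0504) or 3 (0.166) and ASO-L1 replicate 1 (0.191) or 3 (0.0684). ZBTB8OS on the other side of RBBP4 was at -0.20 (adjusted p = 0.162). REPS2, next to RBBP7, fell from 9.85 ± 0.514 to 6.15 ± 0.468 CPM (-0.68 ± 0.12, adjusted p = 0.00330), while TXLNG, which overlaps RBBP7, was at 195.0 and 195.8 CPM (0.01 ± 0.07, adjusted p = 0.953). Around SUZ12, UTP6 was at -0.03 (adjusted p = 0.767) and LRRC37B at 0.29 (adjusted p = 0.109).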
